A study of Homo sapiens with 4 samples.

Results

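The respiratory chain complexes of the mitochondrial inner membrane are put together by proteins that are absent from the finished enzyme. These assembly factors deliver copper, heme and iron-sulfur clusters, modify single subunits, hold intermediates in the membrane and insert new subunits. Loss of many of them causes isolated deficiency of the complex they serve, and some also act in other mitochondrial processes. The 49 assembly factor genes described here were chosen by gene name and grouped by complex, with 14 genes for complex I, 4 for complex II, 6 for complex III, 20 for complex IV and 4 for complex V. OXA1L, the insertase that places proteins into the inner membrane for several complexes, made up a group of its own. All 49 were among the 22637 genes of the deposited table, and all 49 passed the filter on low values, a mean of at least 1 normalized CPM in each pair.

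RNA-seq was performed on 4 lines of human prostate cancer cells, and each gave 1 library. LNCaP is a castration-sensitive line and C4-2B a castration-resistant line derived from it. LN-OlapR and 2B-OlapR are the sublines of LNCaP and C4-2B that were grown in rising doses of olaparib, a PARP inhibitor, for a year. The labels list all 4 cultures as untreated. The deposited description gives 48 hours of plating without the selecting drug, whereas the methods of the study give a longer time. Those methods also have the resistant lines kept in medium with olaparib, and do not say whether the plating medium held it. The question addressed by the design is how each resistant line differs from the parental line it came from, called here the 2B pair (2B-OlapR against C4-2B) and the LN pair (LN-OlapR against LNCaP).

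The values are estimated counts per gene, here scaled to library size with the TMM method and given as normalized CPM. Library totals ranged from 19950573 to 26394305 counts, and the members had between 108 and 3476 counts in each library. A ratio is the log2 of the resistant over the parental value, with a 95% interval that covers counting error only. With 1 library per line, none of the differences could be checked against replicates, and p-values are not given. A difference between lines cannot be told apart from a difference between single cultures. Fewer cells of one kind and less RNA per cell also cannot be told apart in bulk RNA. A member was called higher or lower when it differed by at least 1.5-fold. All 9 prostate epithelial marker genes examined, KRT8 and KRT18 among them, were above 1 normalized CPM in every library. Of 8 markers of stromal, immune and endothelial cells, 4 were listed, and none of these was at 0. COL1A1 and VWF were above 1 normalized CPM in every library, CD68 in every library but LNCaP (0.41), and COL3A1 in LNCaP only (1.08). The summed level of the 4 was between 12.0 and 32.6 normalized CPM. The 3 that passed the filter were at least 1.5-fold lower in 2B-OlapR than in its parental line, as were 13.5% of all genes tested. Their log2 ratios were -1.17 for COL1A1, -0.94 for CD68 and -2.21 for VWF. These rest on few counts, from 329 to 148 for COL1A1, 86 to 45 for CD68 and 249 to 54 for VWF. In the LN pair COL1A1 (-0.88) and VWF (-0.73) were lower, and CD68 was higher (3.59), from 11 counts in LNCaP to 120 in LN-OlapR. COL3A1 had 29 counts in LNCaP and 3 or fewer in the other libraries. The LNCaP library stood apart in KLK3, which encodes prostate-specific antigen, at 53.1 normalized CPM against 1870 to 2685 in the other libraries. The part of these differences in the members' ratios was not tested.

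As a group, the assembly factors were at nearly the same level in resistant and parental cells. Their summed level was 2220 normalized CPM in LNCaP and 2291 in LN-OlapR, against 2411 in C4-2B and 2446 in 2B-OlapR. In the 2B pair 28 of the 49 genes were higher and 21 lower in 2B-OlapR, where 50% of all 15527 genes tested were higher and 50% lower. The median log2 ratio was 0.014, with an interquartile range from -0.14 to 0.27, against -0.00026 for all genes. In the LN pair 26 were higher and 23 lower in LN-OlapR, where 49.6% of the 15373 genes tested were higher and 50.4% lower. The median was 0.037 (interquartile range -0.18 to 0.18) against -0.0041 for all genes. Scaling by total counts shifts every log2 ratio of a pair by the same amount. It moved the medians of the members to -0.027 (2B pair) and -0.047 (LN pair), and those of all genes to -0.042 and -0.088. The sign of the members' medians thus depended on the scaling, and under both scalings they lay close to the medians of all genes.

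Few members reached the 1.5-fold call. In the 2B pair NDUFAF2 and NDUFAF4 were higher, a count of 2 of 49 (4.08%) against 10.7% of all genes, and NUBPL was lower, 1 of 49 (2.04%) against 13.5%. In the LN pair ACAD9 and LYRM7 were higher, again 2 of 49 against 10.6% of all genes, and no member was lower, against 10.8%. The members just inside and just outside the call were NDUFAF4 (1.55-fold) and PET100 (1.47-fold) for the 2B pair, and ACAD9 (1.501-fold) and BCS1L (1.47-fold) in the LN pair. No member reached 2-fold in either pair, against 4.42% of all genes higher and 5.65% lower for the 2B pair, and 4.64% and 4.83% for the LN pair. With a difference of at least 25% of the lower value, 9 members were higher and 5 lower for the 2B pair (22.1% and 25.2% of all genes), and 6 were higher and 4 lower for the LN pair (20.9% and 21.7%). Smaller differences were common. The counting interval lay above 0 for 19 members and under 0 for 16 in the 2B pair, against 31.2% and 30.5% of all genes, and for 15 and 15 in the LN pair, against 31.4% and 31%. Over the 4 libraries, the highest level of a member was a median of 1.39 times its lowest, against 1.62 for the 14602 genes tested in both pairs. For 32 members (65.3%) this ratio was under 1.5, which held for 39.1% of those genes. Every member had at least 108 counts in each library, whereas the filter admits genes down to a mean of 1 normalized CPM. Counting error is larger at low counts, and the part of level in these shares was not tested.

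**Figure D1:**
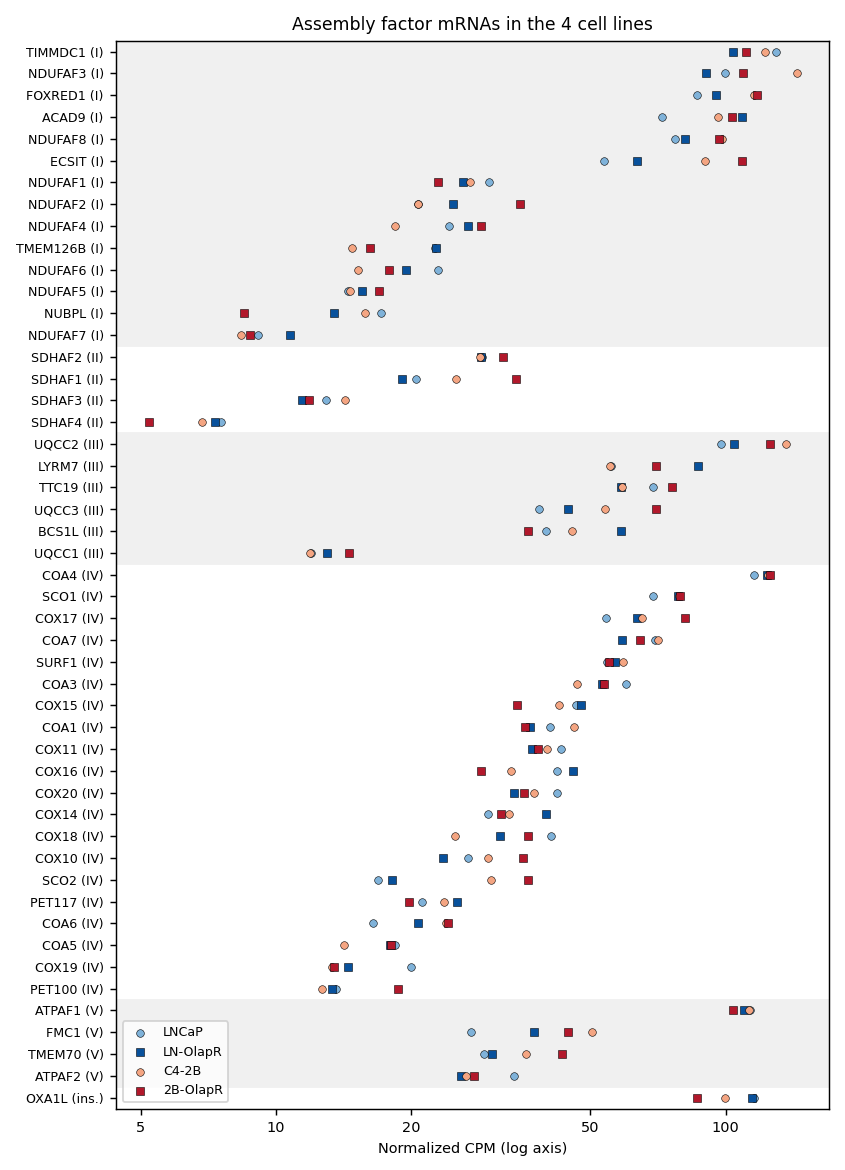
Normalized CPM (x, log axis) of the 49 assembly factors (y), grouped by complex from I at the top to OXA1L (ins.) at the bottom and sorted by mean level. Circles are parental and squares resistant libraries, 1 library per line. For most genes the 4 symbols lie close together, and NUBPL, SDHAF4 and NDUFAF2 are examples in which 2B-OlapR stands away from the other 3 libraries.

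The promoters of the members were read from RefSeq (GRCh38.p14), which gave 43 of the 49, as 300 bases from 250 before to 50 after the gene start. They were searched on both strands for the NRF1 motif (GCGCA, then any base, then GCGC) and the ETS motif CCGGAAG, since NRF1 and the ETS factor GABP are known regulators of respiratory chain genes. The NRF1 letters were found in 10 promoters (23.3%), against 23.9% of 67 promoters of nuclear subunits, 10.9% of 12848 promoters of genes in the deposited table and 6.3% of all 27195 promoters. The ETS letters were found in 16 (37.2%), against 29.9%, 17.6% and 10.7%. Of the members, 22 promoters held one motif or the other and 4 held both, those of SDHAF3, COX17, FMC1 and OXA1L. The following 30-base windows are a selection of the sites found, with the motif in capitals. Further sites of COX17 and COX18, and those of other members, are not shown.
ACAD9, NRF1 motif (chr3:128879414-128879443, plus strand): tcctttggccGCGCAAGCGCagtggggccg
ACAD9, NRF1 motif (chr3:128879564-128879593, plus strand): gcgggggaccGCGCAAGCGCagtgagtact
COX17, NRF1 motif (chr3:119677449-119677478, minus strand): tgcctcttctGCGCACGCGCtccttttaaa
COX18, NRF1 motif (chr4:73069744-73069773, minus strand): gcaggcaggcGCGCATGCGCtttatgcccg
LYRM7, ETS motif (chr5:131170694-131170723, plus strand): ctgcgCCGGAAGtgactgtgcccctaacta
NDUFAF4, ETS motif (chr6:96898020-96898049, minus strand): gccacctcccgCCGGAAGcggccctcgtgg

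The ACAD9 promoter held the same 10 letters at both sites. The motif of COX18 in the window shown reads the same on both strands. In the promoters of NDUFAF2 and NUBPL neither motif was found. In the 2B pair the median log2 ratio was -0.0087 for the 10 members with the NRF1 motif and 0.013 for the 33 without it, and in the LN pair 0.10 and -0.0082. For the ETS motif it was 0.011 for 16 members and 0.013 for the 27 without it in the 2B pair, and 0.015 and 0.0041 in the LN pair. When 1 mismatch was allowed, 19 promoters held the NRF1 motif, 44.2% against 29.7% of the genes in the deposited table. For the ETS motif it was 33 promoters, 76.7% against 77.8%. A match of letters is a description of the sequence and not evidence that a factor binds there.

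Complex I, the largest of the chain, is built from modules that are made separately and then joined. The 3 genes called in the 2B pair all belong to its assembly factors. NDUFAF2 (ENSG00000164182.12), a paralogue of the subunit NDUFA12 that binds a late intermediate before the NADH-oxidising module is added, is at chr5:60945129-61153037, plus strand (GRCh38, GENCODE release 29). It had 34.8 normalized CPM in 2B-OlapR and 20.7 in C4-2B, against 24.7 in LN-OlapR and 20.7 in LNCaP. The parental lines were thus at the same level and both resistant lines above it. The log2 ratio was 0.75 (95% counting interval 0.58 to 0.93) for the 2B pair, or 1.68-fold, and 0.26 (0.09 to 0.43) for the LN pair.

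NDUFAF4 (ENSG00000123545.6), at chr6:96889313-96897881 on the minus strand, works with NDUFAF3 in making the early ubiquinone-binding module. It had 18.4 normalized CPM in the C4-2B library and 28.5 in 2B-OlapR, against 24.3 in LNCaP and 26.7 in LN-OlapR. C4-2B was the lowest library, and 2B-OlapR lay near both libraries of the LNCaP background. The log2 ratio was 0.63 (0.44 to 0.82) for the 2B pair, and 0.14 (-0.02 to 0.30) for the LN pair, whose interval includes 0. Its partner NDUFAF3 went the other way. With 99.7 normalized CPM in LNCaP and 90.6 in LN-OlapR, against 144.0 in C4-2B and 109.1 in 2B-OlapR, its log2 ratio was -0.40 (-0.48 to -0.32) in the 2B pair, against -0.14 (-0.22 to -0.06) in the LN pair. DALRD3, whose exons overlap those of NDUFAF3 on the opposite strand, had a log2 ratio of -0.53 for the 2B pair, and whether the authors' counting used strand is not given in the sources used here.

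NUBPL (ENSG00000151413.17), which delivers iron-sulfur clusters to complex I, is at chr14:31489956-31861224, plus strand. It had 8.49 normalized CPM in 2B-OlapR and 15.8 in C4-2B, against 13.5 in LN-OlapR and 17.1 in LNCaP, from 176, 323, 314 and 460 counts in that order. Each resistant library was below its parental library, and 2B-OlapR was the lowest of the 4. The log2 ratio was -0.89 (-1.17 to -0.62) for the 2B pair, or 1.86-fold lower, and -0.35 (-0.56 to -0.14) for the LN pair, or 1.27-fold lower. Of the 49 members, NUBPL had the lowest ratio in the 2B pair. It was the only member whose parental level exceeded the resistant level by at least 25% in both pairs with both intervals under 0, 1 of 49 against 6.78% of all genes tested in both.

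ACAD9 (ENSG00000177646.20) had the highest ratio of the complex I group in the LN pair. It resembles enzymes of fatty acid oxidation and forms the mitochondrial complex I assembly (MCIA) complex with NDUFAF1, ECSIT and TMEM126B, which builds the membrane arm. The gene is at chr3:128879596-128916067, plus strand. It had 96.3 normalized CPM in the C4-2B library and 103.0 in 2B-OlapR, against 72.2 in LNCaP and 108.5 in LN-OlapR. LNCaP was the low library and the other 3 were within a narrow range. The log2 ratio was 0.59 (0.50 to 0.67) for the LN pair and 0.10 (0.01 to 0.19) for the 2B pair.

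Of the partners of ACAD9, ECSIT also had both intervals above 0, and NDUFAF1 and TMEM126B did not. ECSIT had 53.7 normalized CPM in LNCaP and 63.5 in LN-OlapR, against 89.8 in C4-2B and 108.9 in 2B-OlapR. Its ratios were similar in both pairs, 0.24 (0.14 to 0.35) for the LN pair and 0.28 (0.19 to 0.37) for the 2B pair, while C4-2B was 1.67-fold above LNCaP. NDUFAF1 was lower in both resistant lines, with log2 ratios of -0.19 (-0.35 to -0.04) for the LN pair and -0.24 (-0.42 to -0.06) for the 2B pair. TIMMDC1, a membrane protein that joins this stage, had -0.32 (-0.39 to -0.24) for the LN pair and -0.14 (-0.23 to -0.06) for the 2B pair. The intervals of TMEM126B included 0 in both pairs. It had 22.6 normalized CPM in LNCaP and 22.7 in LN-OlapR, against 14.8 in C4-2B and 16.2 in the resistant line, so for this gene the 2 backgrounds differed more than resistant and parental cells.

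The factors that chemically modify complex I subunits did not differ detectably. NDUFAF5, which hydroxylates an arginine of NDUFS7, NDUFAF7, a methyltransferase, and NDUFAF8, the partner of NDUFAF5 all had intervals that include 0 in both pairs. NDUFAF7 had 250 counts or fewer in each library and the widest interval of the 3, from -0.25 to 0.37 for the 2B pair. FOXRED1, an oxidoreductase-like factor needed for complex I, had log2 ratios of 0.02 (-0.06 to 0.10) in the 2B pair, against 0.14 (0.06 to 0.23) in the LN pair. NDUFAF6, which acts early in assembly, was slightly higher in 2B-OlapR (0.22, 0.0026 to 0.45) and lower in LN-OlapR (-0.24, -0.41 to -0.06). Over the 14 genes of complex I the median log2 ratio was 0.08 in the 2B pair, against 0.09 in the LN pair, with 9 genes higher and 5 lower in each, and 0.039 and 0.0034 under total count scaling.

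**Figure D2:**
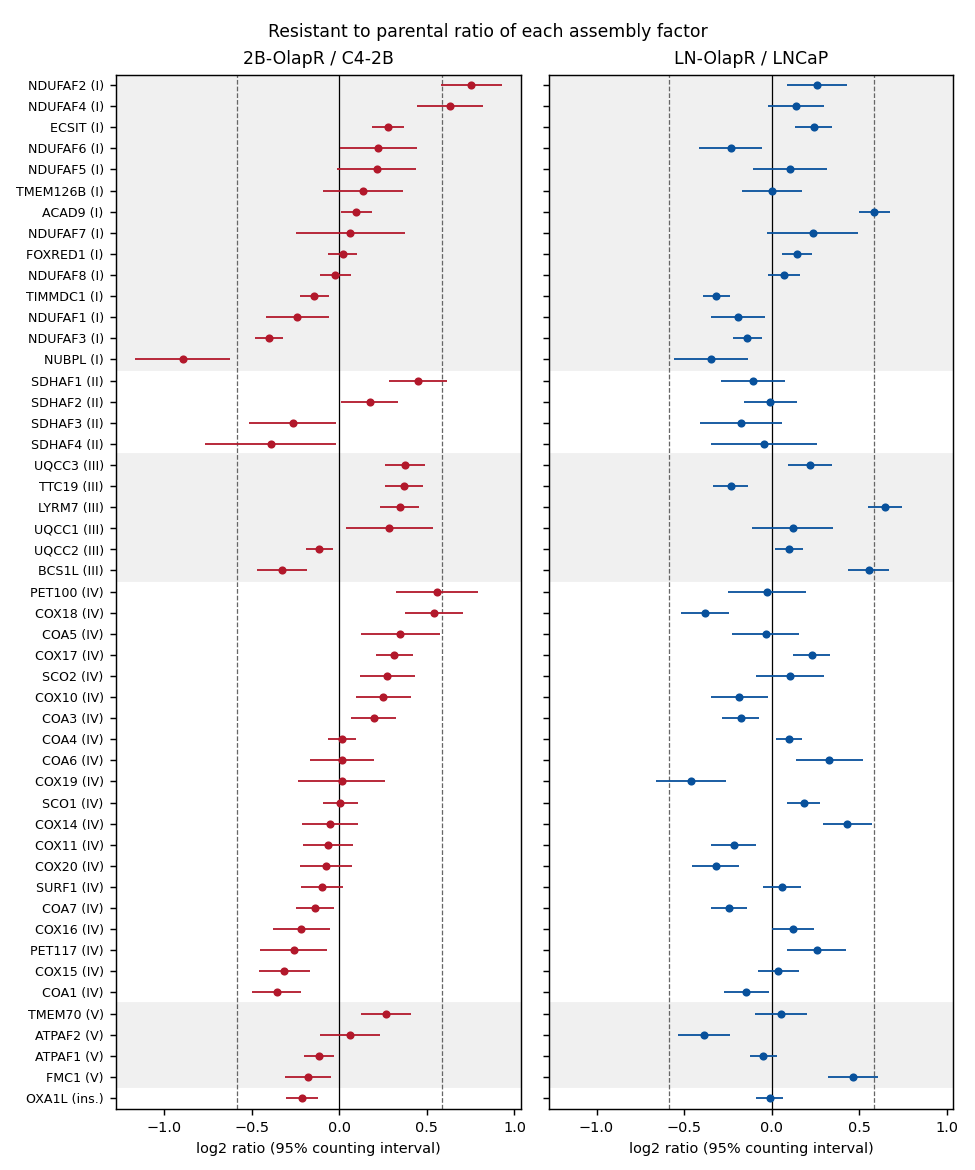
Log2 ratio of resistant over parental cells (x) for each of the 49 assembly factors (y), with the 95% counting interval as a bar, in the 2B pair (left, red) and the LN pair (right, blue). Dashed lines mark 1.5-fold. Of the members, 3 lie past the lines in the 2B pair (NDUFAF2, NDUFAF4 and NUBPL) and 2 in the LN pair (ACAD9 and LYRM7).

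Complex II, succinate dehydrogenase, has the fewest subunits, and its 4 assembly factors act on the flavin-bearing SDHA or on the iron-sulfur subunit SDHB. SDHAF1, which helps place the iron-sulfur clusters of SDHB, had 34.2 normalized CPM in 2B-OlapR and 25.1 in C4-2B, against 19.0 in LN-OlapR and 20.5 in LNCaP. Its log2 ratio of 0.45 (0.28 to 0.62) was the highest of the group in the 2B pair, and that of the LN pair was -0.11 (-0.29 to 0.08). SDHAF4, which binds SDHA, had the fewest counts of the members, with 6.84 normalized CPM in the C4-2B library and 5.21 in 2B-OlapR, against 7.55 in LNCaP and 7.33 in LN-OlapR. Its ratio in the 2B pair, -0.39, rests on 140 and 108 counts and had a wide interval of -0.77 to -0.02.

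The other 2 factors of complex II differed less. SDHAF3, a partner of SDHAF1 in the same step, had a log2 ratio of -0.27 (-0.52 to -0.02) in the 2B pair, against -0.17 (-0.41 to 0.06) in the LN pair. SDHAF2, which attaches the flavin to SDHA, had 0.17 (0.01 to 0.34) and -0.01 (-0.16 to 0.14). In the 2B pair 2 of the 4 intervals were above 0 and 2 under 0, whereas in the LN pair all 4 included 0. Over all genes the interval lay above 0 for 31.2% and under 0 for 30.5% in the 2B pair, and for 31.4% and 31% in the LN pair.

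Complex III needs help at the start, when cytochrome b is made, and at the end, when the Rieske iron-sulfur protein is inserted. LYRM7 (ENSG00000186687.16), a chaperone that keeps the Rieske protein stable in the matrix before insertion, is at chr5:131170810-131205426, plus strand. It had 55.6 normalized CPM in LNCaP and 86.9 in LN-OlapR, against 55.2 in C4-2B and 70.1 in 2B-OlapR. The parental libraries were at the same level and both resistant libraries, 1 per line, were above it. The log2 ratio was 0.64 (0.55 to 0.74) for the LN pair, or 1.56-fold, and 0.34 (0.23 to 0.46) for the 2B pair, or 1.27-fold. LYRM7 was the only member at least 25% higher in both resistant lines with both intervals above 0, 1 of 49 against 5.71% of all genes tested in both. Under total count scaling no member reached 1.5-fold higher in the LN pair, where LYRM7 was 1.47-fold and ACAD9 1.42-fold.

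BCS1L, the AAA protein that moves the folded Rieske protein across the inner membrane, differed in opposite directions. It had 36.2 normalized CPM in 2B-OlapR and 45.4 in C4-2B, against 58.5 in LN-OlapR and 39.8 in LNCaP, with log2 ratios of 0.55 (0.44 to 0.67) for the LN pair and -0.33 (-0.47 to -0.19) for the 2B pair. TTC19, which helps clear fragments of the Rieske protein, had the reverse order. Its level was 58.7 normalized CPM in the C4-2B library and 76.0 in 2B-OlapR, against 68.9 in LNCaP and 58.6 in LN-OlapR, and the log2 ratios were -0.24 (-0.34 to -0.13) for the LN pair and 0.37 (0.26 to 0.48) for the 2B pair. The 3 factors of the Rieske protein thus shared no common direction in either pair.

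Of the factors for cytochrome b, UQCC3 had 38.4 normalized CPM in LNCaP and 44.7 in LN-OlapR, against 53.9 in C4-2B and 70.0 in 2B-OlapR. Both of its intervals were above 0, with log2 ratios of 0.38 (0.26 to 0.49) in the 2B pair, against 0.22 (0.09 to 0.34) in the LN pair, and its exons overlap LBHD1 on the opposite strand, which had 0.29 for the 2B pair. UQCC1 had 0.28 (0.04 to 0.53) and 0.12 (-0.11 to 0.35). UQCC2, with 97.6 to 135.8 normalized CPM over the libraries, had -0.11 (-0.19 to -0.04) and 0.10 (0.02 to 0.18), of which the second became 0.014, with an interval that includes 0, under total count scaling. The median over the 6 genes of complex III was 0.31 in the 2B pair, against 0.17 in the LN pair, and 4 and 5 of the 6 genes were higher in the resistant line. Under total count scaling the medians were 0.27 and 0.085.

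Complex IV, cytochrome c oxidase, has the most assembly factors, since it needs copper at its CuA and CuB centres and heme A, and since its core subunits COX1 and COX2 are made on mitochondrial ribosomes. None of the 20 genes was called in either pair. Over all genes 10.7% were called higher and 13.5% lower in the 2B pair, and 10.6% and 10.8% in the LN pair. The median log2 ratio was 0.01 (2B pair) and 0.0057 (LN pair), which total count scaling turned to -0.032 and -0.078. In the 2B pair 11 genes were higher and 9 lower, and in the LN pair 10 and 10. The exons of COX14, COX15, COX16, COX17, COX19, PET100, PET117 and SCO2 overlap those of another listed gene on the same strand, as do those of ECSIT, SDHAF2 and FMC1, so the counts of these 11 members could be split between genes.

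Among the copper factors, COX17, which hands copper to SCO1 and COX11, was higher in both resistant lines. It had 81.0 normalized CPM in 2B-OlapR and 65.2 in C4-2B, against 63.4 in LN-OlapR and 54.1 in LNCaP, and log2 ratios of 0.31 (0.21 to 0.42) in the 2B pair, against 0.23 (0.12 to 0.33) in the LN pair. COX19, a related small copper-handling protein, had the lowest ratio of all 49 members in the LN pair, -0.46 (-0.66 to -0.26). LNCaP was its high library, with 19.9 normalized CPM against 14.5 in LN-OlapR, 13.5 in 2B-OlapR and 13.3 in C4-2B, and the 2B pair did not differ detectably. COA6, which acts with SCO1 and SCO2 on the CuA centre, had 0.33 (0.14 to 0.52) for the LN pair and 0.01 (-0.17 to 0.20) for the 2B pair.

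SCO2, which acts with SCO1 in the maturation of COX2, had the widest range over the libraries, a highest level 2.15 times the lowest. It had 30.01 normalized CPM in the C4-2B library and 36.3 in 2B-OlapR, against 16.9 in LNCaP and 18.1 in LN-OlapR, so both libraries of the C4-2B background were above both of the LNCaP background. The log2 ratio was 0.27 (0.12 to 0.43) in the 2B pair, against 0.10 (-0.09 to 0.30) in the LN pair. Its exons overlap those of TYMP on the same strand, so its counts could be split between the genes. SCO1 had log2 ratios of 0.01 (-0.09 to 0.11) in the 2B pair, against 0.18 (0.09 to 0.28) in the LN pair, and COX11, which supplies the CuB centre, had -0.07 (-0.21 to 0.08) and -0.22 (-0.35 to -0.09).

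Heme A is made from heme B by COX10 and then COX15, and SURF1 and PET117 act with this step. COX10 had 26.7 normalized CPM in LNCaP and 23.5 in LN-OlapR, against 29.7 in C4-2B and 35.3 in 2B-OlapR. Its log2 ratio was 0.25 (0.09 to 0.41) in the 2B pair, against -0.18 (-0.35 to -0.02) in the LN pair. COX15, the next enzyme, had -0.31 (-0.46 to -0.17) in the 2B pair, against 0.04 (-0.08 to 0.15) in the LN pair, so in 2B-OlapR these consecutive enzymes differed in opposite directions. SURF1 varied least of all 49 members, with a highest level 1.08 times its lowest and both intervals including 0. PET117 had -0.26 (-0.45 to -0.07) in the 2B pair, against 0.26 (0.09 to 0.43) in the LN pair, and its exons overlap those of KAT14 on the same strand, whose log2 ratio in the 2B pair was 0.62.

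The factors that receive newly made COX1 include COX14, COA3 and COA1. COX14 had the highest ratio of the complex IV group in the LN pair, 0.43 (0.29 to 0.57), from 29.5 normalized CPM in LNCaP to 39.8 in LN-OlapR, while C4-2B had 32.9 and 2B-OlapR 31.7. COA3, which binds COX14, had the opposite sign in the LN pair, -0.18 (-0.29 to -0.07), and 0.20 (0.07 to 0.32) for the 2B pair. COA1 had the lowest ratio of the complex IV group in the 2B pair. Its levels were 35.8 normalized CPM in 2B-OlapR and 45.9 in C4-2B, against 36.8 in LN-OlapR and 40.7 in LNCaP, with a log2 ratio of -0.36 (-0.50 to -0.22) in the 2B pair, against -0.14 (-0.28 to -0.01) in the LN pair.

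COX2 is threaded into the membrane by COX18 with the help of COX20 and COX16. COX18 had 24.97 normalized CPM in the C4-2B library and 36.3 in 2B-OlapR, against 41.0 in LNCaP and 31.5 in LN-OlapR. C4-2B was the lowest library and LNCaP the highest. The log2 ratios were 0.54 (0.38 to 0.70) in the 2B pair, against -0.38 (-0.51 to -0.24) in the LN pair. COX20 was lower in LN-OlapR, with -0.32 (-0.45 to -0.19), and did not differ detectably in the 2B pair (-0.08, -0.23 to 0.07). COX16 had -0.22 (-0.38 to -0.05) for the 2B pair, but the readthrough gene SYNJ2BP-COX16, which shares its exons, had 40 counts in C4-2B against 2 in 2B-OlapR, so the counts of COX16 are uncertain.

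PET100, needed for a later intermediate, had the highest ratio of the complex IV group in the 2B pair. With 13.6 normalized CPM in LNCaP and 13.3 in LN-OlapR, against 12.7 in C4-2B and 18.6 in 2B-OlapR, 3 libraries were alike and 2B-OlapR was higher, by 0.56 (0.33 to 0.79) on the log2 scale. Of the small cysteine-rich proteins COA4, COA5 and COA7, COA4 was among the steadiest members, with 115.4 normalized CPM in LNCaP and 125.5 in 2B-OlapR. COA5 had 0.35 (0.12 to 0.58) in the 2B pair, against -0.03 (-0.22 to 0.16) in the LN pair, and COA7 had -0.14 (-0.25 to -0.03) and -0.24 (-0.34 to -0.14).

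Complex V, ATP synthase, is built from a soluble F1 head and a membrane-bound ring of c subunits. ATPAF1 and ATPAF2 bind the beta and alpha subunits of F1. ATPAF1 was nearly level over the libraries, with 103.7 normalized CPM in 2B-OlapR and 112.4 in C4-2B, against 109.7 in LN-OlapR and 113.4 in LNCaP. ATPAF2 had 33.7 normalized CPM in LNCaP against 25.8 in LN-OlapR, 27.6 in 2B-OlapR and 26.4 in C4-2B, and a log2 ratio of -0.39 (-0.54 to -0.24) for the LN pair and 0.06 (-0.11 to 0.23) for the 2B pair.

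FMC1, which works with ATPAF2, was lowest in LNCaP, the library in which ATPAF2 was highest. It had 50.4 normalized CPM in the C4-2B library and 44.5 in 2B-OlapR, against 27.2 in LNCaP and 37.4 in LN-OlapR, with log2 ratios of 0.46 (0.32 to 0.61) for the LN pair and -0.18 (-0.31 to -0.05) for the 2B pair. Its exons overlap LUC7L2 and a readthrough gene on the same strand, so its counts are uncertain. LUC7L2 had log2 ratios of 0.55 for the LN pair and 0.04 for the 2B pair. TMEM70, which helps form the c ring, had 29.1 normalized CPM in LNCaP and 30.1 in LN-OlapR, against 36.0 in C4-2B and 43.3 in its resistant line, with 0.27 (0.12 to 0.41) in the 2B pair, against 0.05 (-0.10 to 0.20) in the LN pair. OXA1L had 86.1 normalized CPM in 2B-OlapR and 99.8 in C4-2B, against 114.3 in LN-OlapR and 115.3 in LNCaP. Its log2 ratio was -0.21 (-0.31 to -0.12) in the 2B pair, against -0.01 (-0.09 to 0.06) in the LN pair.

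The 2 backgrounds were then set side by side, as they share no library. Of the 49 members 17 were higher in both resistant lines, 12 were lower in both, 11 were higher in 2B-OlapR only and 9 in LN-OlapR only. Over all genes tested in both pairs, 28.5% were higher in both, 29.1% lower in both and 21.2% higher in each resistant line only. With both intervals above 0 there were 6 members, namely NDUFAF2, ACAD9, ECSIT, UQCC3, LYRM7 and COX17, and with both under 0 another 6, namely NDUFAF1, NDUFAF3, TIMMDC1, NUBPL, COA1 and COA7. Each is 12.2% of the members, against 13.9% and 13% of all genes. Under total count scaling ACAD9 left the first group, and SDHAF3, ATPAF1 and OXA1L joined the second. The intervals lay on opposite sides of 0 for 9 members (18.4%) against 16% of all genes. In 5 of them the gene was higher in 2B-OlapR and lower in LN-OlapR (7.55% of all genes), and in 4 the reverse (8.46%). Under total count scaling the count was 8, without NDUFAF6 and UQCC2 and with SDHAF1. Across the 49 genes, the ratios (log2) in these 2 pairs had a Pearson correlation of 0.14 and a Spearman correlation of 0.16, against 0.21 and 0.20 over all genes tested in both. These are correlations across genes that share libraries and scaling, and genes are not independent replicates.

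**Figure D3:**
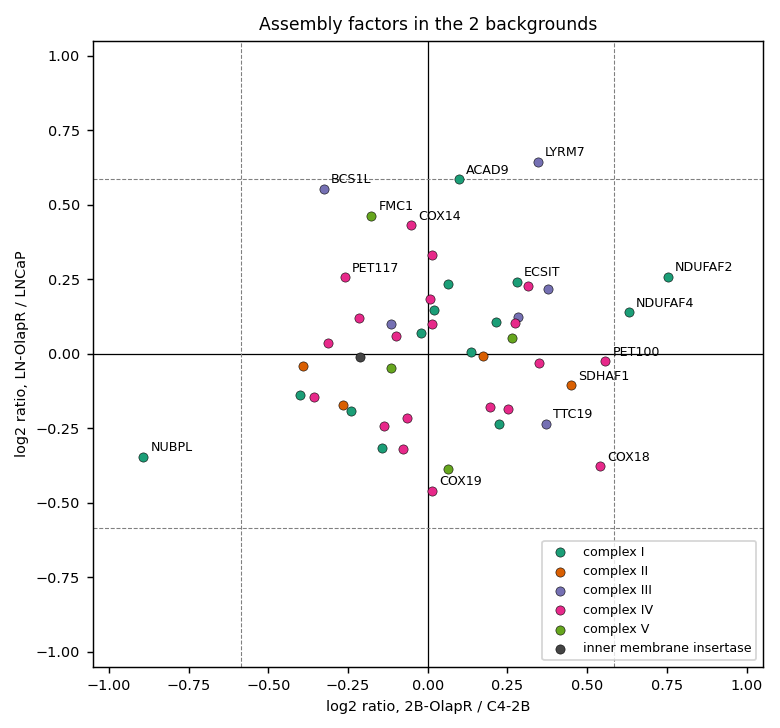
Log2 ratio in the 2B pair (x) against the LN pair (y) for the 49 assembly factors, coloured by complex, with dashed lines at 1.5-fold. NUBPL lies at -0.89 and -0.35 and LYRM7 at 0.34 and 0.64, while COX18 (0.54 and -0.38) and BCS1L (-0.33 and 0.55) lie in quadrants of opposite sign.

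The castration-resistant C4-2B was also set against LNCaP, from which it was derived. This comparison shares a library with each of the other pairs, so the values are given only side by side. Of the 49 members 3 were at least 1.5-fold higher in C4-2B and 3 lower, each 6.12% against 16.1% of the 15580 genes tested. FMC1 (0.89, 0.75 to 1.03), SCO2 (0.83, 0.65 to 1.01) and ECSIT (0.74, 0.64 to 0.84) were higher in C4-2B on the log2 scale. COX18 (-0.71, -0.87 to -0.56), TMEM126B (-0.61, -0.82 to -0.41) and NDUFAF6 (-0.59, -0.79 to -0.39) were lower. None of these 6 genes was called in the 2B pair or in the LN pair.

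The structural subunits that the assembly factors serve were examined from a list of 83 nuclear genes, of which 79 passed the filter in both pairs. The members of complexes I, II, IV and V had lower medians than the subunits of the same complex in both pairs, and the difference was not tested. For complex I the subunit medians were 0.20 (2B pair) and 0.15 (LN pair), against 0.08 and 0.09 for the assembly factors. For complex IV they were 0.10 and 0.17, against 0.01 and 0.0057. In complex III the assembly factors had the higher median in the 2B pair, 0.31 against 0.18, and the lower one in the LN pair, 0.17 against 0.22. Over all 5 complexes 67 of 79 subunit genes (84.8%) were higher in 2B-OlapR and 61 (77.2%) in LN-OlapR. Of the assembly factors 57.1% and 53.1% were higher, and of all genes 50% and 49.6%. Under total count scaling 64 and 48 of the 79 subunit genes were higher, and 23 and 21 of the 49 assembly factors. These counts cannot be set against 50% and 49.6%, since total count scaling also lowered the ratios of all genes. Median log2 ratios for all genes were then -0.042 (2B pair) and -0.088 (LN pair). Subunit medians were 0.12 and 0.067, and those of the assembly factors -0.027 and -0.047, so both lists stayed above all genes.

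**Figure D4:**
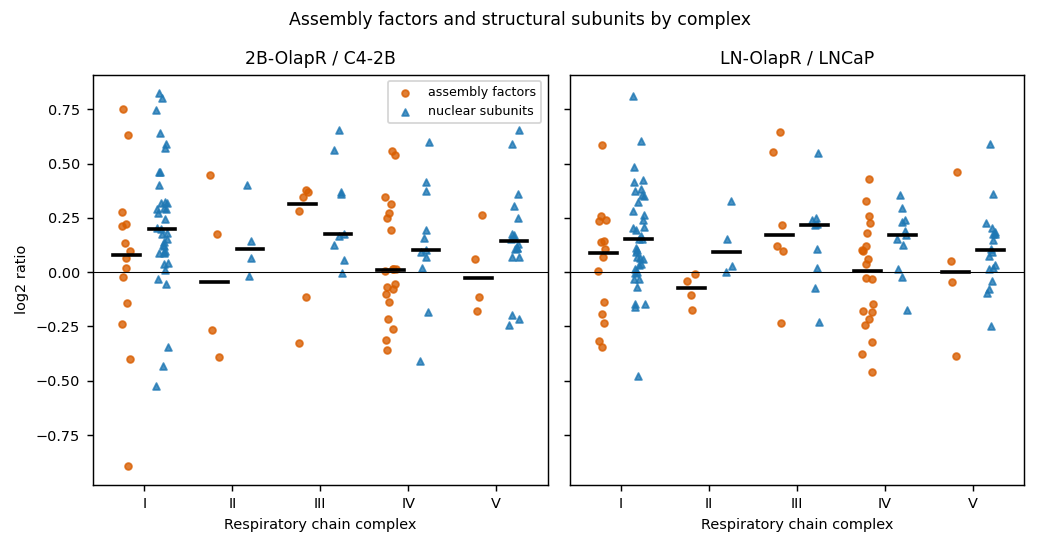
Log2 ratio (y) of each assembly factor (orange circles) and each nuclear-encoded structural subunit (blue triangles) by complex (x), in the 2B pair (left) and the LN pair (right). Black bars are medians, for complex I 0.08 and 0.20 in the 2B pair and 0.09 and 0.15 for the LN pair. OXA1L is not drawn.

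Further genes for complex assembly and cofactor supply were taken from separate lists. Of 20 related assembly genes, HIGD2A was at least 1.5-fold higher in 2B-OlapR and CMC2 lower, and none was past 1.5-fold in the LN pair. That is 5% in each direction against 10.7% and 13.5% of all genes in the 2B pair, and 0 against 10.6% and 10.8% in the LN pair. HIGD2A, which acts in complex IV and supercomplex assembly, had a log2 ratio of 0.75 (0.67 to 0.82) for the 2B pair. CMC2, a small cysteine-rich protein linked to complex IV, had 182.3 normalized CPM in the C4-2B library and 91.6 in 2B-OlapR, against 48.4 in LNCaP and 53.2 in LN-OlapR, so its ratio of -0.99 (-1.07 to -0.91) came with a high value in C4-2B. In the LN pair the highest of this list was CHCHD7, with 0.57 (0.41 to 0.73), and the lowest HIGD1A, with -0.46 (-0.56 to -0.36).

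Of 15 genes for mitochondrial iron-sulfur cluster assembly, the pathway upstream of NUBPL, LYRM7 and SDHAF1, 2 were called higher in the 2B pair (13.3% against 10.7% of all genes) and 1 lower in the LN pair (6.67% against 10.8%). FDX1, a mitochondrial ferredoxin, had 44.8 normalized CPM in LNCaP and 33.7 in LN-OlapR, against 42.8 in C4-2B and 119.6 in 2B-OlapR. Its log2 ratio was 1.48 (1.37 to 1.60) in the 2B pair, against -0.41 (-0.54 to -0.28) in the LN pair. FDX2, the other ferredoxin of the list, had 0.09 (-0.07 to 0.26) in the 2B pair, against 0.14 (-0.01 to 0.28) in the LN pair. The lowest gene of the list was LYRM4 for the 2B pair (-0.57, -0.77 to -0.37) and NFU1 for the LN pair (-0.68, -0.98 to -0.39), and FDXR was highest in the LN pair (0.52, 0.37 to 0.66). The list median was 0.09 in the 2B pair, against 0.01 in the LN pair.

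Heme synthesis supplies COX10 and COX15. FECH, the enzyme that inserts iron to make heme, was called lower in both pairs, with 138.3 normalized CPM in 2B-OlapR and 226.7 in C4-2B, against 204.1 in LN-OlapR and 321.1 in LNCaP, log2 ratios of -0.65 (-0.71 to -0.60) for the LN pair and -0.71 (-0.78 to -0.65) for the 2B pair. ALAD, an early enzyme of the pathway, was 2.22-fold above its C4-2B level in 2B-OlapR and had a log2 ratio of -0.13 (-0.29 to 0.03) for the LN pair, where PPOX was highest (0.41, 0.20 to 0.61). Of the 8 genes 1 was called higher and 1 lower in the 2B pair (12.5% each, against 10.7% and 13.5% of all genes) and 1 lower in the LN pair (12.5% against 10.8%), and the medians were 0.07 and -0.03. Among 13 genes for coenzyme Q synthesis, 2 were called higher (15.4% against 10.7% of all genes) and 1 lower (7.69% against 13.5%) in the 2B pair, and 1 higher in the LN pair (7.69% against 10.6%). PDSS2 was highest in the 2B pair (0.72, 0.56 to 0.89) and lowest in the LN pair (-0.36, -0.51 to -0.21), while COQ10A was lowest in the 2B pair (-0.60, -0.95 to -0.26) and COQ8A highest in the LN pair (0.65, 0.59 to 0.71).

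Levels were compared between genes as normalized CPM per kilobase of the longest annotated transcript, averaged over the 4 libraries. NDUFAF8 was highest with 119.1, followed by COA4 with 117.7 and COX17 with 96.4. NUBPL was lowest with 2.73, and NDUFAF5 (2.78) and NDUFAF7 (3.10) were next to it. With the merged length of all exons in place of the longest transcript, 3 of the 5 highest genes and 5 of the 5 lowest stayed in these groups.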

How the data were processed

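RNA from 4 prostate cancer cell lines was sequenced from stranded mRNA libraries made from 100 ng of RNA, 1 library per line. The authors deposited estimated counts per gene, not scaled between libraries. The submitters' processing notes name STAR, Partek and the build GRCh38 (hg38), without versions, and how these were combined is not given in the sources used here. Every gene of the table sums to at least 10 over the 4 libraries. Estimated counts can split reads between genes, and 38% of the values differ from a whole number by more than 0.01. So do values of 32 of the 49 members in at least 1 library. These did not always go with overlap. COX10 and NDUFAF6 had such values without exons that overlap another listed gene, and COX14, with a same-strand overlap, had whole values in every library. The values were rounded to whole counts for scaling.

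Libraries were scaled with TMM factors (edgeR 4.0.16, R 4.3.3), and the other steps used Python 3.11.15, pandas 2.3.3, numpy 2.4.6 and SciPy 1.17.1. Log2 ratios were taken after adding 0.5 to each count. A gene entered a pair when its normalized CPM averaged 1 or more. The 95% intervals are exact conditional binomial intervals of the ratio of 2 counts. No model was fitted, and the steps were tested on simulated data.

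Members, lists, the fold of 1.5 and the naming rule were chosen with earlier results of these data known. The rule names members past 1.5-fold in either pair, the extremes of each complex and list, members that differ by at least 25% of the lower value in the same direction in both pairs, and the extremes of level per kilobase. Other members are named to account for all 49. COL1A2, DCN, PTPRC, PECAM1, COX4I2, COX6A2, UQCC4, UQCC5 and UQCC6 were not analysed here, nor were protein sequences. Alternatives were scaling by total counts, DESeq2 1.42.0 size factors or upper quartile factors, a pseudocount of 2, no filter or a filter of 10 normalized CPM, a fold of 2 and the 25% difference, merged exon lengths and 1 mismatch in motifs. Exons of 29 members overlap those of another listed gene in GENCODE release 29, 11 of them on the same strand. Some items are not reported here.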

Additional observations from a re-analysis of the deposited data

Results flagged for a closer look

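For 9 assembly factors the 2 pairs differed in direction, with both counting intervals on one side of 0. With 1 library per line, the difference between the pairs was not tested. Under total count scaling the interval of NDUFAF6 in the 2B pair and that of UQCC2 in the LN pair include 0. The log2 ratios in the 2B pair and the LN pair were 0.224 and -0.235 for NDUFAF6, -0.326 and 0.553 for BCS1L, -0.115 and 0.098 for UQCC2, 0.371 and -0.235 for TTC19, and 0.252 and -0.185 for COX10. They were 0.539 and -0.378 for COX18, 0.196 and -0.178 for COA3, -0.261 and 0.257 for PET117, and -0.178 and 0.463 for FMC1. Among all genes tested in both pairs, 16% had intervals on opposite sides of 0, and the 9 members make up 18.4%.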

How the results depend on the processing

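Scaling by total counts moved the median of all genes to -0.042 (2B pair) and -0.088 (LN pair), and changed the sign of 5 members in each pair, none of them past 1.5-fold. DESeq2 size factors changed the sign of 1 member (SDHAF2, LN pair), as did upper quartile factors (NDUFAF8, 2B pair). Under scaling by total counts, the count of members at least 1.5-fold higher in the LN pair was 0. The interval counts over both pairs, rescaled as an alternative chosen after seeing the data, were 8 to 10 on opposite sides of 0, 5 to 6 both above 0 and 6 to 9 both under 0 over the scalings, COX16 joining the first under DESeq2 and upper quartile factors. At a fold of 2 the counts were 0 higher and 0 lower in the 2B pair and 0 higher in the LN pair. At a difference of at least 25% they were 9 higher and 5 lower in the 2B pair and 6 higher and 4 lower in the LN pair. DESeq2 and upper quartile scaling, a pseudocount of 2 and both other filters left the group counts within 1.5 times and the group medians between 0.014 and 0.046. Under the filter of 10 normalized CPM, 47 members were left in each pair. Over all alternatives the log2 ratio of NUBPL in the 2B pair ranged from -0.93 to -0.87, and that of NDUFAF2 from 0.71 to 0.78. No paired analysis was possible because each line has 1 library, and for the same reason no replicate could be left out. Depth limits the members with the fewest counts most, as SDHAF4 with 108 counts in 2B-OlapR.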
